A study of Mus musculus with 12 samples.

Results

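The genes of the mitochondrial respiratory chain and ATP synthase in mouse liver are described here as a set of 105 members among the 17859 genes that carry a symbol in the deposited table of transformed values. Members were chosen by symbol: the Nduf names of complex I, Sdha to Sdhd of complex II, the Uqcr names and Cyc1 of complex III, Cox4 to Cox8 of complex IV, the Atp5 names of complex V, Cycs, and the subunits encoded by mitochondrial DNA. Of the 105, 92 are nuclear-encoded and 13 are encoded by mitochondrial DNA (mt genes). The nuclear members are 39 genes of complex I, 4 of complex II, 9 of complex III, 14 of complex IV, 17 of complex V, 8 assembly factors of complex I, and cytochrome c. The mt members are 7 genes of complex I, 1 of complex III (mt-Cytb), 3 of complex IV and 2 of complex V. Ndufa4 is counted under complex I by its symbol, although its protein is known as a subunit of complex IV. Atp5s and Atp5sl are likewise counted under complex V by symbol alone. Cox4i2 and Cox6b2 are not in the table of symbols.

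Liver RNA came from 12 adult male mice, 3 separate animals in each of 4 groups, and was read as tags from the 3' ends of transcripts. Wild-type (WT) mice received corn oil or CITCO, an activator of human CAR. Mice in which human CAR and human PXR replace mouse Car and mouse Pxr (hCAR/hPXR) received CITCO alone. So did mice that lack mouse Car and mouse Pxr and carry human PXR (Car KO/hPXR). CITCO was injected into the peritoneum at 10 mg/kg on each of 4 days, and the mice were killed on day 5. The modified lines were on a C57BL/6NTac background, and the strain of the WT mice is not given in the sources used here. Corn oil was given to WT mice alone in these libraries, so in the humanised lines an effect of CITCO and an effect of genotype cannot be told apart. The human receptors are not counted as mouse genes. Libraries held between 1167008 and 2341557 counts, and levels are TMM-normalised counts scaled by library size (CPM).

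Electrons from NADH enter the chain at complex I and those from succinate at complex II, and pass through ubiquinone, complex III and cytochrome c to complex IV, which reduces oxygen. Complexes I, III and IV pump protons, and complex V makes ATP as protons return. Complexes I, III, IV and V are built from subunits of both genomes, whereas complex II is made from nuclear genes alone. The mt messages are cut from long transcripts of mitochondrial DNA, while the nuclear members are spread over many chromosomes.

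Counts of the receptor genes separate WT mice from both modified lines, and Cyp2b10 separates the modified lines. Nr1i2, which encodes mouse Pxr, had 199, 100 and 155 counts in WT corn oil, 114, 113 and 126 in WT CITCO, 0, 1 and 0 in hCAR/hPXR, and 2, 0 and 0 in Car KO/hPXR. Nr1i3, which encodes mouse Car, had 287, 104 and 215 counts, then 184, 116 and 207, then 2, 0 and 6, then 3, 2 and 5 in the same order of groups. Cyp2b10, a P450 gene under the control of CAR, had 3, 0 and 0 counts in WT corn oil, 2, 6 and 2 in WT CITCO, 281, 288 and 184 in hCAR/hPXR, and 1, 0 and 3 in Car KO/hPXR. Nr1i2 and Nr1i3 were lower than in WT CITCO in both modified lines, and Cyp2b10 was higher in hCAR/hPXR than in either other CITCO group (edgeR's quasi-likelihood test, adjusted p under 0.05).

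Muscle transcripts set 2 libraries apart before any comparison of the members. The 5 muscle markers in the table summed to 240 counts in WT CITCO replicate 1 and 225 in hCAR/hPXR replicate 1, against 29 in Car KO/hPXR replicate 1, 11 in WT CITCO replicate 2 and between 0 and 2 in the other 8 libraries. Acta1, the skeletal muscle actin gene, held 95 and 109 of these counts in the 2 libraries, Mb (myoglobin) 67 and 58, Ckm (muscle creatine kinase) 65 and 48, and Myh1 13 and 9. Complex IV has muscle forms of several subunits, which are among the members, and the source of their counts was not tested. Cox6a2 had 7 counts in WT CITCO replicate 1 and 13 in hCAR/hPXR replicate 1, and 0 or 1 elsewhere. Cox8b had 7 and 7 counts in the same libraries, and 0 or 1 elsewhere. Cox7a1 had 13 and 12 counts there, and between 0 and 7 in the other libraries. These 3 muscle forms were too rare to be tested, along with Ndufaf5, Ndufa4l2 and Atp5s, which left 99 members tested: 86 nuclear and 13 mt. The results below use all 12 libraries, and the counts of members without the 2 libraries are given beside them.

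**Figure D1:**
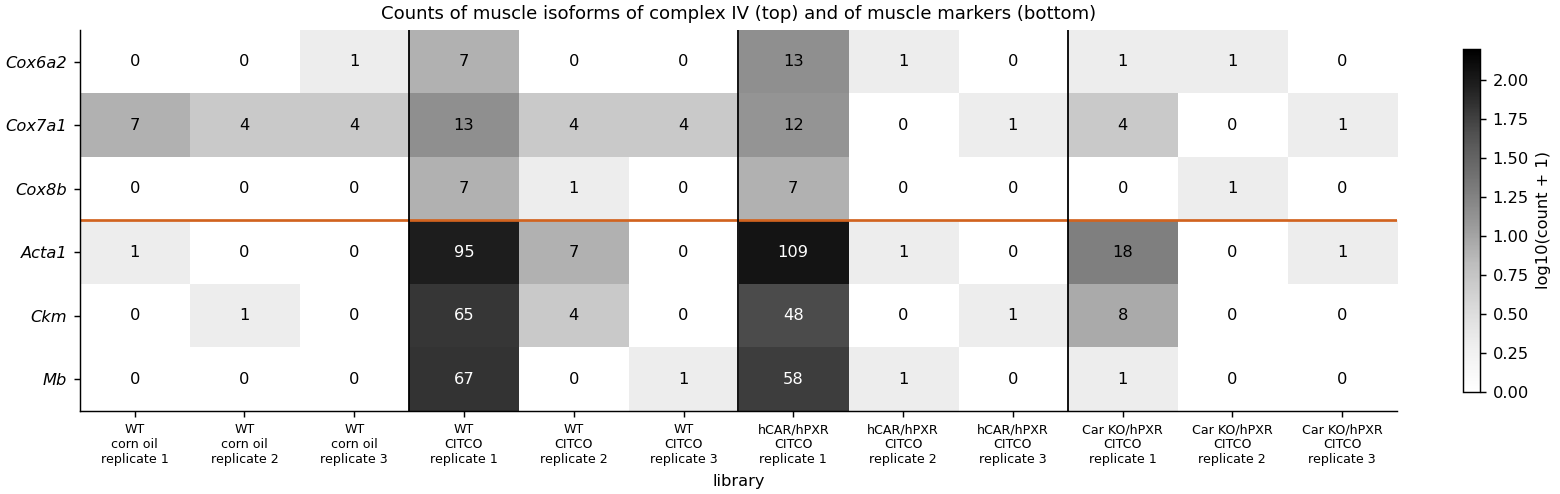
Counts of the muscle markers and of the muscle forms of complex IV subunits in each of the 12 libraries (columns, by group). WT CITCO replicate 1 and hCAR/hPXR replicate 1 hold 95 and 109 counts of Acta1 and 7 and 13 of Cox6a2.

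The common liver forms of the same complex IV subunits were abundant in every group. Cox4i1, the ubiquitous form of subunit 4, had mean levels of 315 CPM (SD 56.5) in WT corn oil, 361 (SD 18.9) in WT CITCO, 349 (SD 45.9) in hCAR/hPXR and 315 (SD 30.4) in Car KO/hPXR. Cox6a1, the liver form beside Cox6a2, had 321, 362, 345 and 379.5 CPM in the same order. Cox7a2, the liver form beside Cox7a1, had 396, 447, 470.1 and 446 CPM, and Cox8a, beside Cox8b, had 636.5, 615.5, 649 and 703 CPM. Cox6b1 had 382, 388, 383 and 413 CPM. Cox6a1, Cox7a2 and Cox8a were far above their muscle counterparts in all 12 libraries.

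Promoters of the nuclear members were searched for sites of factors known to drive mitochondrial genes, and some hold them. Sequences of 250 bases before to 50 bases after the transcription start were available for 77 of the 92 nuclear members, with 83 promoters (RefSeq, GRCm38.p6). The YY1 motif AAGATGGC, sought on both strands, was in 13 of the 83 (15.7%) and in 903 of all 32851 promoters (2.75%). The NRF1 motif GCGCATGCG was in 11 (13.3%) and in 575 of all (1.75%), the GABPA motif CCGGAAGT in 5 (6.02%) and 1277 of all (3.89%), and the ERR motif TCAAGGTCA in 2 (2.41%) and 139 of all (0.423%). The median GC content was 59% in these promoters and 52.7% in all. Below are 4 promoters with capitals marking the motif matches. Cox5b (chr1:36691237-36691536, plus strand, no match) and Ndufb8 (chr19:44555393-44555692, minus strand, YY1) are shown as genes named in the comparisons. Cycs (chr6:50566520-50566819, minus strand, NRF1 on the reverse strand) is shown as the electron carrier, and Ndufs4 (chr13:114388045-114388344, minus strand, YY1) as the steadiest gene below. A match describes the sequence and is no evidence of binding in these livers.
Cox5b promoter: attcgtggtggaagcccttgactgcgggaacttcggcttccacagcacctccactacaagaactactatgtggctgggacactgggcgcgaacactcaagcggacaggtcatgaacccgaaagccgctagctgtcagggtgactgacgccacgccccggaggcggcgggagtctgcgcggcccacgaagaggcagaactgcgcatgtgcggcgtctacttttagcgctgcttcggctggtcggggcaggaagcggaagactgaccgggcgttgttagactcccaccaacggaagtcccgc
Ndufb8 promoter: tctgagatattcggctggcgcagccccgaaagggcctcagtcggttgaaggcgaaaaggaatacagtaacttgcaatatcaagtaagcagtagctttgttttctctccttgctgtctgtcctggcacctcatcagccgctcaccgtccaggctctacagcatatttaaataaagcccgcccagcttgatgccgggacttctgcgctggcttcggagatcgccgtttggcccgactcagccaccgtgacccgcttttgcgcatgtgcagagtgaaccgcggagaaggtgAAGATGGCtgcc
Cycs promoter: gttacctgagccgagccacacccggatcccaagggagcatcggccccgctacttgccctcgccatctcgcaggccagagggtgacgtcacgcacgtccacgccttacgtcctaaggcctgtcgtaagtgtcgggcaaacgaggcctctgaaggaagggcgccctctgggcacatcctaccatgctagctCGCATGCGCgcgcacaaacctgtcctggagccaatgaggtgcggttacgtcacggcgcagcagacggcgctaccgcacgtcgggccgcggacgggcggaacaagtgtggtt
Ndufs4 promoter: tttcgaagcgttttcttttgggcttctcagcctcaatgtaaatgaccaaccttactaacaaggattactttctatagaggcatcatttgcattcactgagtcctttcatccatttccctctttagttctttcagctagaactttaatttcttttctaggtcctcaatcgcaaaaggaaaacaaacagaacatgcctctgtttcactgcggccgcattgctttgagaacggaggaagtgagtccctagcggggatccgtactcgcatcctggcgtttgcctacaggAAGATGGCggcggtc

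Of the mt members, 12 lie on the plus strand of chrM and mt-Nd6 on the minus strand, and some neighbours overlap. mt-Atp8 and mt-Atp6 encode membrane subunits of ATP synthase and share the 43 bases at chrM:7927-7969 (GRCm38, plus strand), shown here since a tag in them fits both genes. mt-Nd4l and mt-Nd4 share 7 bases (chrM:10167-10173), mt-Atp6 and mt-Co3 share 1 base, and mt-Nd5 and mt-Nd6 overlap by 14 bases on opposite strands. The sources used here do not say whether counting took note of the strand. Levels of mt-Atp8 with mt-Atp6 and of mt-Nd4l with mt-Nd4 are therefore also given as sums, and the other overlaps were not summed.
mt-Atp8 and mt-Atp6 overlap: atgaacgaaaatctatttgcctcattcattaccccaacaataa

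Together the members made up a part of the liver's messages that did not separate the groups. Nuclear members held 1.99, 1.90 and 1.92% of counts in the WT corn oil libraries, 1.90, 1.69 and 2.14% in WT CITCO, 1.71, 1.90 and 2.03% in hCAR/hPXR, and 2.18, 1.94 and 2.06% in Car KO/hPXR. The mt members held 6.83, 5.77 and 5.999% in WT corn oil, 5.47, 6.87 and 6.16% in WT CITCO, 5.27, 5.46 and 6.38% in hCAR/hPXR, and 5.61, 7.67 and 6.52% in Car KO/hPXR. The libraries of the 4 groups overlap for both shares and for the ratio of mt to nuclear counts, which averaged 3.20 (SD 0.21), 3.27 (SD 0.68), 3.03 (SD 0.135) and 3.23 (SD 0.697). The highest ratios were in WT CITCO replicate 2 (4.06) and Car KO/hPXR replicate 2 (3.96). Both libraries also had mt members above their own means, by a median log2 of 0.41 and 0.43, whereas hCAR/hPXR replicate 2 was at -0.30. The mt ribosomal RNAs were 5.90% of counts in WT CITCO replicate 2 and 6.18% in Car KO/hPXR replicate 2. Over all libraries they ranged from 4.01 to 6.54%, the highest being WT corn oil replicate 1. As CPM they were 66700 and 64100 in these libraries. WT corn oil replicate 1 had 67800 CPM and the others 57700 or less. With 3 mice against 3, an exact permutation test cannot give a p below 0.1, so shares are compared by their ranges. In bulk liver RNA, fewer cells of a type and less RNA per cell cannot be told apart.

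**Figure D2:**
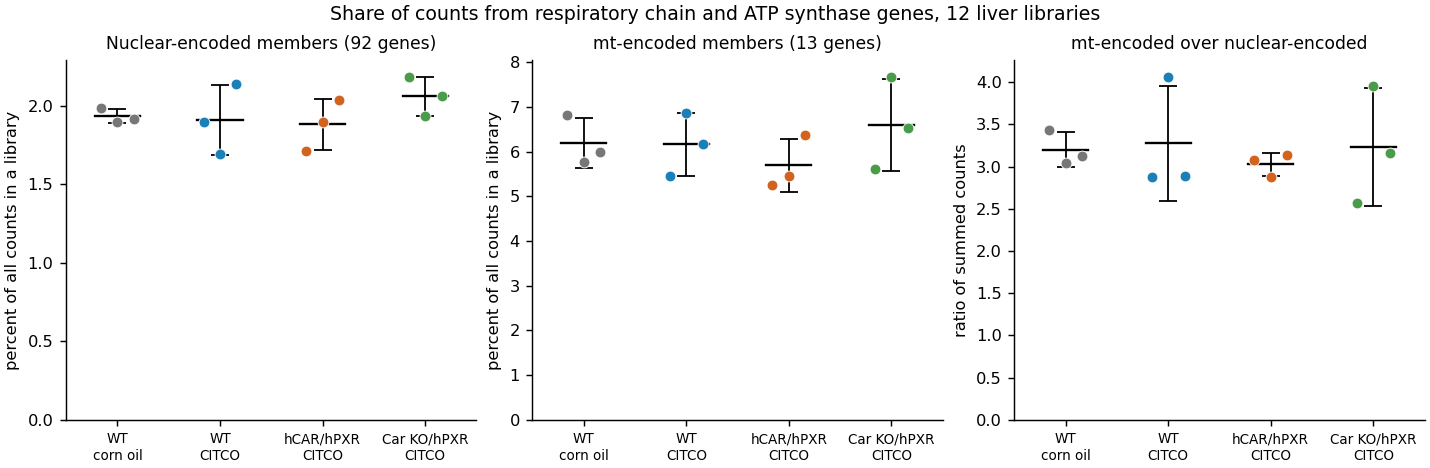
Share of each library's counts from the 92 nuclear and 13 mt members, and the ratio of the mt to the nuclear counts. Points are mice, lines are means with SD, and the groups overlap in all 3 panels, with the highest ratio (4.06) in WT CITCO replicate 2.

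Shares were also summed by complex and genome. Of 44 shares compared (11 sets, 4 comparisons), 3 (6.82%) did not overlap, a smaller part than the 13.6 to 15.1% of single genes given below, so their number is no result about the members. All 3 were for complex V, with hCAR/hPXR lower. The mt genes of complex V held 0.332, 0.30 and 0.294% of counts in hCAR/hPXR, below 0.384, 0.373 and 0.389% in WT CITCO and 0.362, 0.593 and 0.405% in Car KO/hPXR. WT corn oil libraries, with 0.362, 0.394 and 0.291%, overlapped with all CITCO groups. The nuclear genes of complex V averaged 0.582% (SD 0.025) in WT corn oil, 0.582% (SD 0.0533) in WT CITCO, 0.561% (SD 0.0468) in hCAR/hPXR and 0.641% (SD 0.0301) in Car KO/hPXR, and were below all Car KO/hPXR libraries in each hCAR/hPXR library. The nuclear genes of complex I averaged 0.609, 0.591, 0.587 and 0.636%, and their libraries overlap in every comparison.

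**Figure D3:**
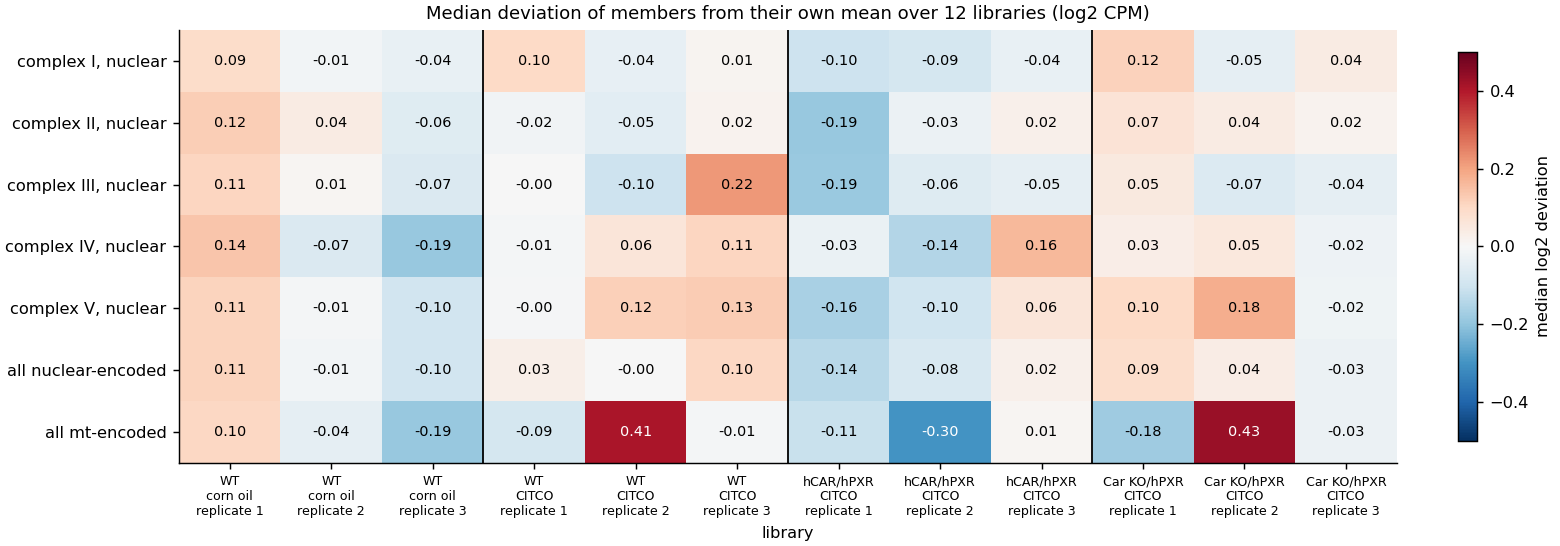
Median log2 deviation of the members of each complex from their own means over 12 libraries, by library. The mt members stand at 0.41 in WT CITCO replicate 2 and 0.43 in Car KO/hPXR replicate 2, while the nuclear members of all complexes stay within 0.22 of their means.

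Most nuclear members varied little between mice. Over the 12 libraries the highest level of a nuclear member was a median 1.58 times its lowest, against 1.77 for the 12 mt members counted in every library and 2.48 for all 8388 such genes tested. Ndufs4, an accessory subunit of complex I at its NADH-oxidising end, had a mean of 147 CPM (SD 4.07) in WT corn oil, 151 (SD 8.58) in WT CITCO, 155 (SD 6.93) in hCAR/hPXR and 151 (SD 8.34) in Car KO/hPXR. Its highest library was 1.12 times its lowest, the smallest ratio of the 8388 genes, and it is named here after its values were seen. At the other end is Ndufaf6, an assembly factor of complex I with 34, 14 and 19 counts in WT corn oil, 23, 21 and 21 in WT CITCO, 15, 17 and 21 in hCAR/hPXR, and 20, 14 and 2 in Car KO/hPXR. It too was chosen after the values were seen, and its ratio was 10.7. Genes of like abundance were about as steady: edgeR's median coefficient of biological variation was 0.146 for nuclear members, 0.207 for mt members and 0.209 for all genes, but 0.151 for 819 other genes of like abundance.

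The nuclear gene with the most tags in each complex gives its level in these livers. Tag counts do not scale with transcript length, but whether tags are captured alike from different genes was not tested. These genes were Atp5g3, for the proton-carrying c ring of ATP synthase, with a mean of 1293 CPM, Cox6c of complex IV (716), Uqcrh, the hinge protein of complex III (705), Ndufs6 of complex I (537) and Sdhb, the iron-sulfur subunit of complex II (472.5). Ndufaf4 led the assembly factors of complex I at 74.99 CPM, and Cycs, the electron carrier between complexes III and IV, had 55.6. Mean levels of mt messages were led by mt-Cytb of complex III at 10500, mt-Nd4 at 10330, mt-Co2 at 9397, mt-Nd2 at 8565, mt-Co3 at 7448 and mt-Nd1 at 7227 CPM. The other mt messages had fewer tags: mt-Atp6 2192, mt-Co1 1589, mt-Atp8 1555, mt-Nd6 1287, mt-Nd5 1283, mt-Nd3 437.9 and mt-Nd4l 57.2 CPM, the last resting mainly on 1 library. mt-Co1, the catalytic core of complex IV, was the steadiest of these, its highest library being 1.39 times its lowest.

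CITCO given to WT mice brought no called change in the respiratory chain. The 3 nuclear members with the smallest p all belong to complex I and point both ways, with Ndufa5 below corn oil and Ndufa1 and Ndufb6 above it. Members of other complexes also stood apart: Sdhc of complex II (log2 fold change 0.43) and Cox5a of complex IV (0.56) were above corn oil in all libraries, at unadjusted p of 0.0199 and 0.0206 by edgeR. Ndufa5 (ENSMUSG00000023089), an accessory subunit in the arm of complex I that reaches into the matrix, had 206, 227 and 232 CPM in WT corn oil and 151, 159 and 157 in WT CITCO. Every corn oil library is above every CITCO library, with a log2 fold change of -0.51 (SE 0.136, 95% interval -0.79 to -0.22, adjusted p 0.175 by edgeR). DESeq2's Wald test put Ndufa5 just under the threshold (adjusted p 0.0496), and the other alternatives gave 0.174 to 0.551. Ndufa1, a small membrane subunit from the X chromosome, averaged 130 CPM (SD 22.3) in corn oil and 183 (SD 11.8) in CITCO, a log2 fold change of 0.49 (SE 0.162, edgeR adjusted p 0.318) without overlap. Ndufb6, an accessory subunit in the membrane arm, had 48.7, 37.7 and 44.2 CPM in corn oil and 64.8, 64.3 and 61.9 in CITCO, a log2 fold change of 0.54 (SE 0.185, edgeR adjusted p 0.343).

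Between WT CITCO and WT corn oil, 0 of 99 members had an adjusted p under 0.05 in edgeR's quasi-likelihood test, Benjamini-Hochberg adjusted, against 0.233% of all 8594 genes. An unadjusted p under 0.05 was found for 8 members (8.08%), 7 of them higher with CITCO, and for 9.13% of all genes. These members were Ndufa5, Ndufa1, Ndufb6, Ndufa4, Ndufaf4, Sdhc, Cox5a and mt-Nd4l, and some are named after their values were seen. The libraries of 19 members (19.2%) did not overlap, 8 above and 11 below corn oil, against 14.7% of all genes. DESeq2's Wald test called 1 member (48 of all 20067 genes in its fit) and limma on the deposited values 0 (13 of 17859). Without the 2 libraries with muscle transcripts edgeR called 0 members (5 of all 8795 genes), with 8 at an unadjusted p under 0.05. The median log2 fold change was 0.04 for nuclear members (48 of 86 higher) and 0.13 for mt members (11 of 13 higher), beside 0.00 for all genes. Leaving out WT CITCO replicate 2 gave an mt median of -0.02, and leaving out corn oil replicate 3 gave 0.01. For 91 of the 99 members (91.9%) the 95% interval lay within a 2-fold change in either direction, as it did for 56.4% of all genes. Intervals narrow with abundance, and the median level was 161 CPM for nuclear and 2190 for mt members, against 21.2 for all genes. This share was not taken for genes of like abundance, here or in the comparisons below. A p above the threshold does not show that levels were the same, and smaller shifts are within these intervals.

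**Figure D4:**
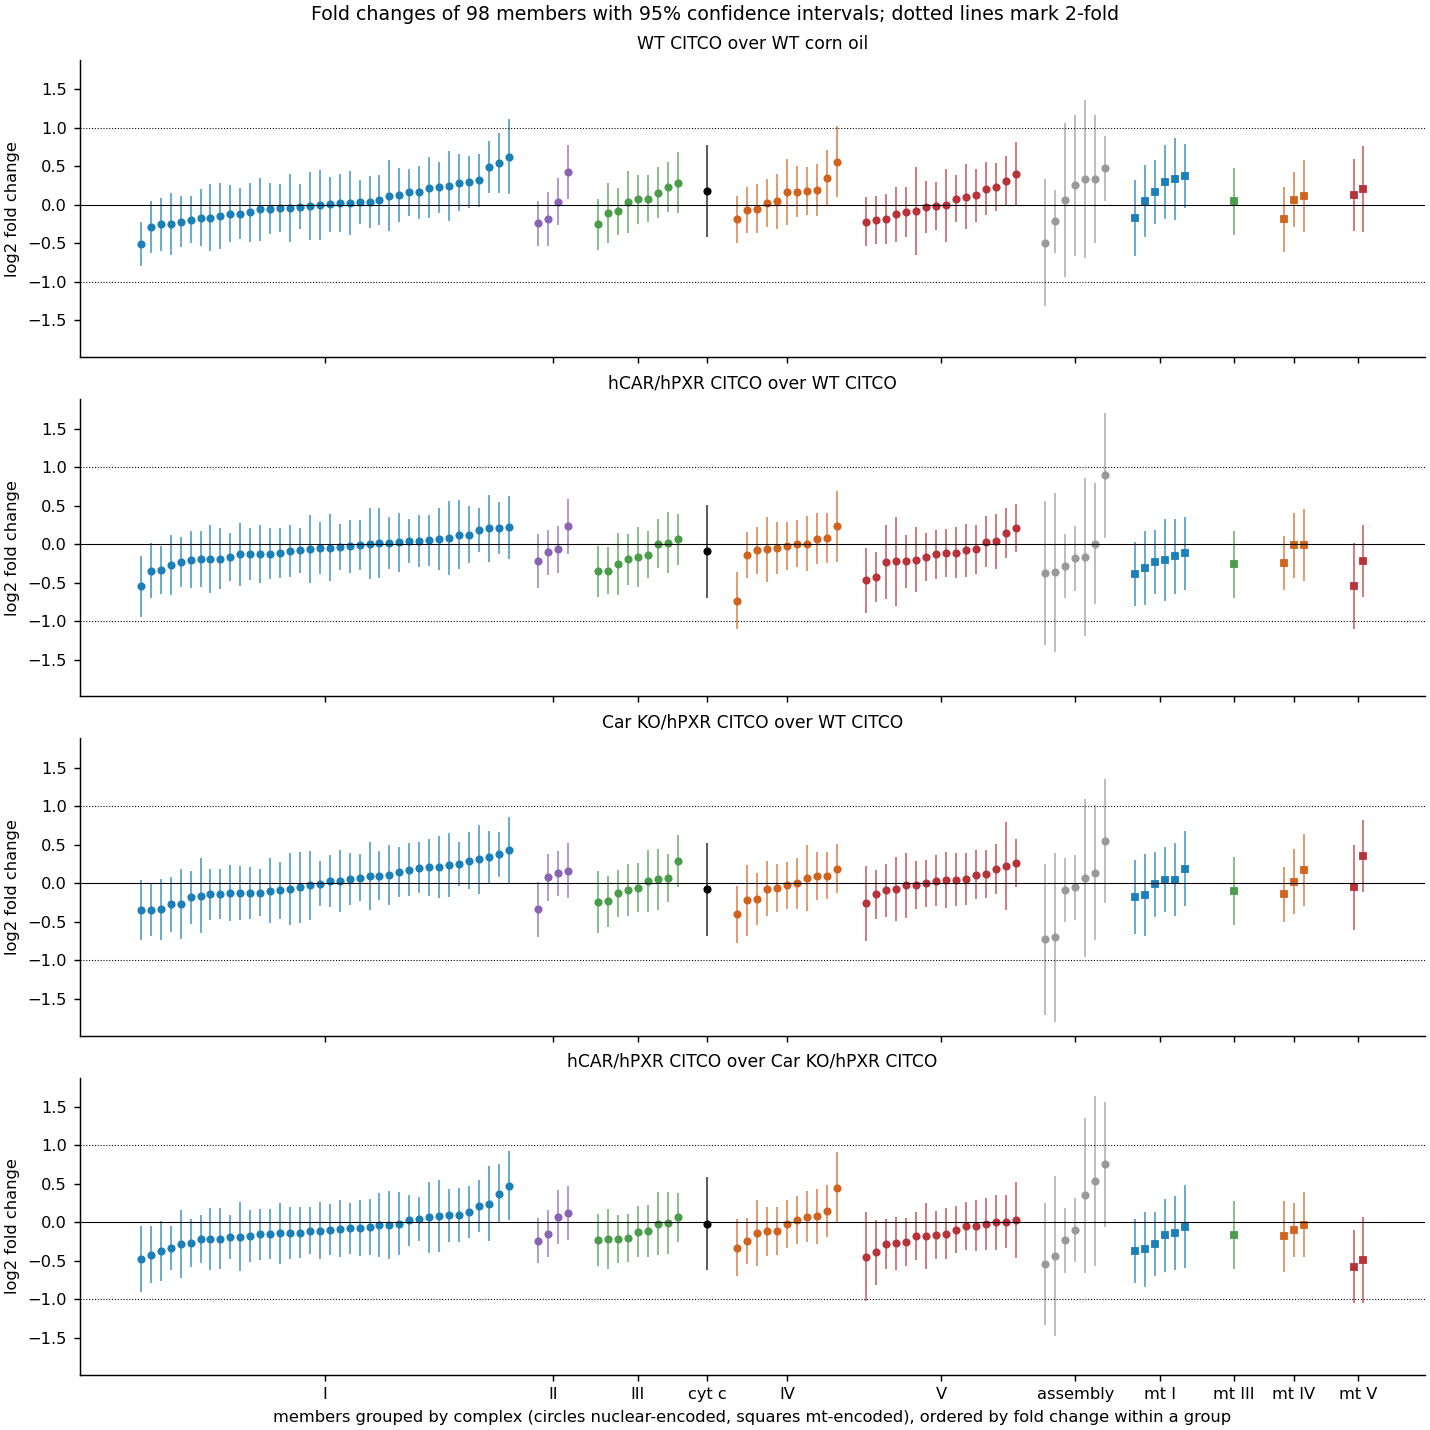
Log2 fold changes of 98 members in the 4 comparisons, by complex and genome, with 95% intervals (mt-Nd4l, with counts in 5 libraries, is left out). Most intervals span 0 and lie inside the dotted lines of a 2-fold change, and Cox5b is the lowest of complex IV in hCAR/hPXR against WT CITCO, at -0.73.

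Between the CITCO-treated livers of hCAR/hPXR and WT mice, the clearest member was Cox5b, a nuclear subunit on the matrix side of complex IV. It was lowest in hCAR/hPXR. Members below WT CITCO without overlap and at an unadjusted p under 0.05 also belong to complex I (Ndufb6 and Ndufa7), complex III (the core protein Uqcrc1 and the Rieske protein Uqcrfs1) and ATP synthase (Atp5f1, the b subunit of its outer stalk, and Atp5j). The assembly factor Ndufaf7 was above (log2 fold change 0.90), and all 13 mt members had negative fold changes. Ndufa7, Uqcrc1, Uqcrfs1, Atp5j and Ndufaf7 are named after their values were seen. This comparison, like the next, uses the WT CITCO libraries as controls. Cox5b (ENSMUSG00000061518) had 264.5, 185.5 and 217 CPM in WT corn oil, 259, 241 and 351 in WT CITCO, 184.5, 144 and 183 in hCAR/hPXR, and 208, 216 and 218.5 in Car KO/hPXR. The hCAR/hPXR libraries are below every library of the other groups, corn oil replicate 2 being only just above them. The log2 fold change against WT CITCO was -0.73 (SE 0.175, 95% interval -1.10 to -0.37, p 0.000546, adjusted p 0.0958 by edgeR). With single libraries left out it ranged from -0.855 to -0.559, the weakest being without WT CITCO replicate 3. WT CITCO was itself above corn oil for Cox5b, by a log2 fold change of 0.35 with overlap. DESeq2's Wald test called Cox5b (adjusted p 0.0046), as did edgeR without a filter on low counts (0.0126), and the other alternatives gave adjusted p between 0.0757 and 0.337. Ndufb6 had 44.1, 38.91 and 47.9 CPM in hCAR/hPXR, all below the 64.8, 64.3 and 61.9 of WT CITCO, at a log2 fold change of -0.55 (edgeR adjusted p 0.323). Atp5f1 averaged 147.5 CPM (SD 12.6) in hCAR/hPXR and 199 (SD 9.71) in WT CITCO, a log2 fold change of -0.43 (edgeR adjusted p 0.373) without overlap. Uqcrc1 had -0.36 and Uqcrfs1 -0.35 (edgeR adjusted p 0.52 and 0.48). WT corn oil livers had 43.5 CPM of Ndufb6 (SD 5.57), so its WT CITCO level is the one that stands apart. In the order WT corn oil, WT CITCO and hCAR/hPXR, mean levels were 160, 199 and 147.5 CPM for Atp5f1. Atp5j had 77.6, 102.8 and 74.7 CPM and Uqcrc1 127.8, 150.9 and 117.5. For these genes the corn oil mean lay nearer to hCAR/hPXR. Uqcrfs1 had 143.5, 152 and 119.4 CPM, with corn oil nearer to WT CITCO, and Ndufa7 had 215.3, 240.8 and 190.5.

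With hCAR/hPXR against WT CITCO, edgeR's quasi-likelihood test, Benjamini-Hochberg adjusted called 0 of 99 members, against 0.407% of all genes. DESeq2 called 1 member (74 of all 20067 genes in its fit) and limma 0 (35 of 17859). An unadjusted p under 0.05 was found for 9 members (9.09%), 8 of them lower in hCAR/hPXR, beside 8.81% of all genes. The libraries of 13 members (13.1%) did not overlap, 11 of them below WT CITCO, beside 13.6% of all genes. These shares are near those of all genes. Without the 2 libraries with muscle transcripts, edgeR called 0 members (13 of all 8795 genes), and 4 members had an unadjusted p under 0.05. Log2 fold changes had a median of -0.08 in nuclear members (30 of 86 higher) and -0.23 in mt members (0 of 13 higher), where all genes had 0.01. Without WT CITCO replicate 2, the library rich in mt messages, the mt median was -0.04. For 92 of the 99 members the 95% interval lay within a 2-fold change, as for 55.6% of all genes.

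In Car KO/hPXR livers, which have human PXR but no CAR, the nuclear members centred on their WT CITCO levels. The members with an unadjusted p under 0.05 other than mt-Nd4l were Ndufa5, Ndufab1 and Ndufa12 above WT CITCO and Cox5b and Ndufa1 below it, all without overlap. Ndufa5 had 215, 187.5 and 203 CPM in Car KO/hPXR against 151, 159 and 157 in WT CITCO, a log2 fold change of 0.37 (SE 0.137, edgeR adjusted p 0.351) without overlap. Ndufab1, the acyl carrier protein bound to complex I, averaged 171 CPM (SD 3.70) against 135.5 (SD 12.9), a log2 fold change of 0.34 (SE 0.16, edgeR adjusted p 0.537), also without overlap. Cox5b was lower than WT CITCO in 3 of 3 libraries, with a log2 fold change of -0.41 (SE 0.175, edgeR adjusted p 0.474), and -0.23 without WT CITCO replicate 3. Ndufa12 had a log2 fold change of 0.43 and Ndufa1 one of -0.34 (edgeR adjusted p 0.537 for each). Ndufb6, at 54.7, 55.3 and 40.6 CPM in Car KO/hPXR, also had -0.34 but an unadjusted p of 0.0859 (edgeR adjusted p 0.605), and -0.21 without Car KO/hPXR replicate 3. In the order WT corn oil, WT CITCO and Car KO/hPXR, mean levels were 222, 156 and 202 CPM for Ndufa5. Ndufab1 had 165.5, 135.5 and 171 CPM, Ndufa1 130, 183 and 144, and Cox5b 222, 283.5 and 214. For these genes the corn oil mean lay nearer to Car KO/hPXR than to WT CITCO. Ndufa12 had 135, 122 and 165 CPM, with corn oil nearer to WT CITCO. The cause of the differences from WT CITCO was not tested.

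For Car KO/hPXR against WT CITCO, 0 of 99 members were called by edgeR's quasi-likelihood test, Benjamini-Hochberg adjusted (0.256% of all genes). DESeq2 called 0 members (75 of all 20067 genes in its fit) and limma 0 (15 of 17859). An unadjusted p under 0.05 was found for 6 members (6.06%), 3 in each direction, against 9.3% of all genes. The libraries of 18 members (18.2%) did not overlap, 9 above and 9 below, against 14.2% of all genes. Without the libraries with muscle transcripts, edgeR called 0 members (5 of all 8795 genes), and 2 had an unadjusted p under 0.05. Medians of log2 fold change were 0.00 for nuclear members (42 of 86 higher), -0.01 for mt members (6 of 13 higher) and 0.00 for all genes. The mt median depended on which mice were used: it was -0.24 without Car KO/hPXR replicate 2 and 0.16 without WT CITCO replicate 2. The 95% interval lay within a 2-fold change for 93 of the 99 members and for 54.3% of all genes.

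Set against Car KO/hPXR livers, which received the same CITCO and share the human PXR, hCAR/hPXR livers had lower values for 74 of the 99 members. The median was -0.16 for the 16 tested nuclear genes counted under complex V by their Atp5 symbols, among them Atp5sl. It was -0.08 without hCAR/hPXR replicate 1 and -0.10 without Car KO/hPXR replicate 2. For the 2 mt genes of complex V the median was -0.53, and -0.21 without Car KO/hPXR replicate 2. mt-Atp6 encodes subunit a, which with the c ring forms the proton path. It had 2107, 1867 and 1597 CPM in hCAR/hPXR and 2257, 3562 and 2481 in Car KO/hPXR, while WT corn oil averaged 1976 (SD 621) and WT CITCO 2168 (SD 209.7). All hCAR/hPXR libraries were below all Car KO/hPXR libraries, with a log2 fold change of -0.57 (SE 0.224, 95% interval -1.04 to -0.10, edgeR adjusted p 0.349). Without Car KO/hPXR replicate 2, which is rich in mt messages, it was -0.35, and mt-Atp8 went from -0.49 to -0.06. Summed with its neighbour, mt-Atp8 and mt-Atp6 had 3423, 2963 and 2829 CPM in hCAR/hPXR, 3406, 6151 and 3853 in Car KO/hPXR, and 3887, 4214 and 3710 in WT CITCO. On this sum, scaled by TMM unlike the shares above, hCAR/hPXR and Car KO/hPXR overlap, and hCAR/hPXR is below WT CITCO in every library. Atp5g1, Atp5g2 and Atp5g3, which encode the same mature c subunit, summed to 1663, 1705 and 1735 CPM in hCAR/hPXR, below 1895, 2014 and 2002 in WT CITCO and 2008, 2175 and 1977 in Car KO/hPXR. WT corn oil, with 1934, 1855 and 1426 CPM, spans the hCAR/hPXR values. This sum was chosen after values were seen, and no p is given for it.

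The other members with an unadjusted p under 0.05 between hCAR/hPXR and Car KO/hPXR belong to complex I: Ndufb8, Ndufa8 and Ndufa12, which were lower in hCAR/hPXR, and Ndufb7, which was higher. Ndufb8, an accessory subunit of the membrane arm whose promoter is shown above, had 219.9, 244 and 268 CPM in hCAR/hPXR and 319.8, 275.0 and 325 in Car KO/hPXR, a log2 fold change of -0.33 (SE 0.139, edgeR adjusted p 0.394) without overlap. WT livers had 262 CPM (SD 7.33) with corn oil and 258 (SD 12.4) with CITCO, so the Car KO/hPXR value is the high one. Ndufa8 averaged 83.7 CPM (SD 12.4) against 112 (SD 20.4), a log2 fold change of -0.42 (edgeR adjusted p 0.404), and Ndufa12 118 (SD 35.9) against 165 (SD 19.7), a log2 fold change of -0.48 (edgeR adjusted p 0.412). Ndufb7, named after its values were seen, had a log2 fold change of 0.47 (edgeR adjusted p 0.436). Single libraries moved these values: Ndufa8 was -0.27 without Car KO/hPXR replicate 3, and Ndufa12 was -0.75 without hCAR/hPXR replicate 2 and -0.31 without hCAR/hPXR replicate 3. Ndufa8, Ndufa12 and Ndufb7 are accessory subunits, and for each the libraries overlap. Larger fold changes with larger p were found for the assembly factor Ndufaf7 (0.76, p 0.0664) and for mt-Atp8 (-0.49, p 0.0826) by edgeR. Atp5f1 was -0.28 (edgeR adjusted p 0.553), with all hCAR/hPXR libraries below those of Car KO/hPXR.

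For hCAR/hPXR against Car KO/hPXR, edgeR's quasi-likelihood test, Benjamini-Hochberg adjusted called 0 of 99 members, and 0.582% of all genes. DESeq2 called 0 members (120 of all 20067 genes in its fit) and limma 0 (43 of 17859). An unadjusted p under 0.05 was found for 5 members (5.05%), 4 of them lower in hCAR/hPXR, and for 10.6% of all genes. The libraries of 14 members (14.1%) did not overlap, 12 of them below Car KO/hPXR, and those of 15.1% of all genes. Without the libraries with muscle transcripts, edgeR called 0 members (17 of all 8795 genes), and 5 had an unadjusted p under 0.05. The nuclear median log2 fold change was -0.11, with 24 of 86 higher, and the mt median -0.17, with 1 of 13 higher, beside 0.01 for all genes, of which 51.5% were higher. Of the 16 nuclear genes counted under complex V by symbol, 2 were higher, Atp5o (log2 fold change 0.01) and Atp5sl (0.03). Without Car KO/hPXR replicate 2 the mt median was -0.01. The sign of these medians was the same with DESeq2 size factors (-0.12 nuclear, -0.18 mt). Between replicate libraries the median level of the members varied by a log2 SD of 0.08 (nuclear) and 0.23 (mt). The 95% interval lay within a 2-fold change for 90 of the 99 members and for 54.6% of all genes.

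**Figure D5:**
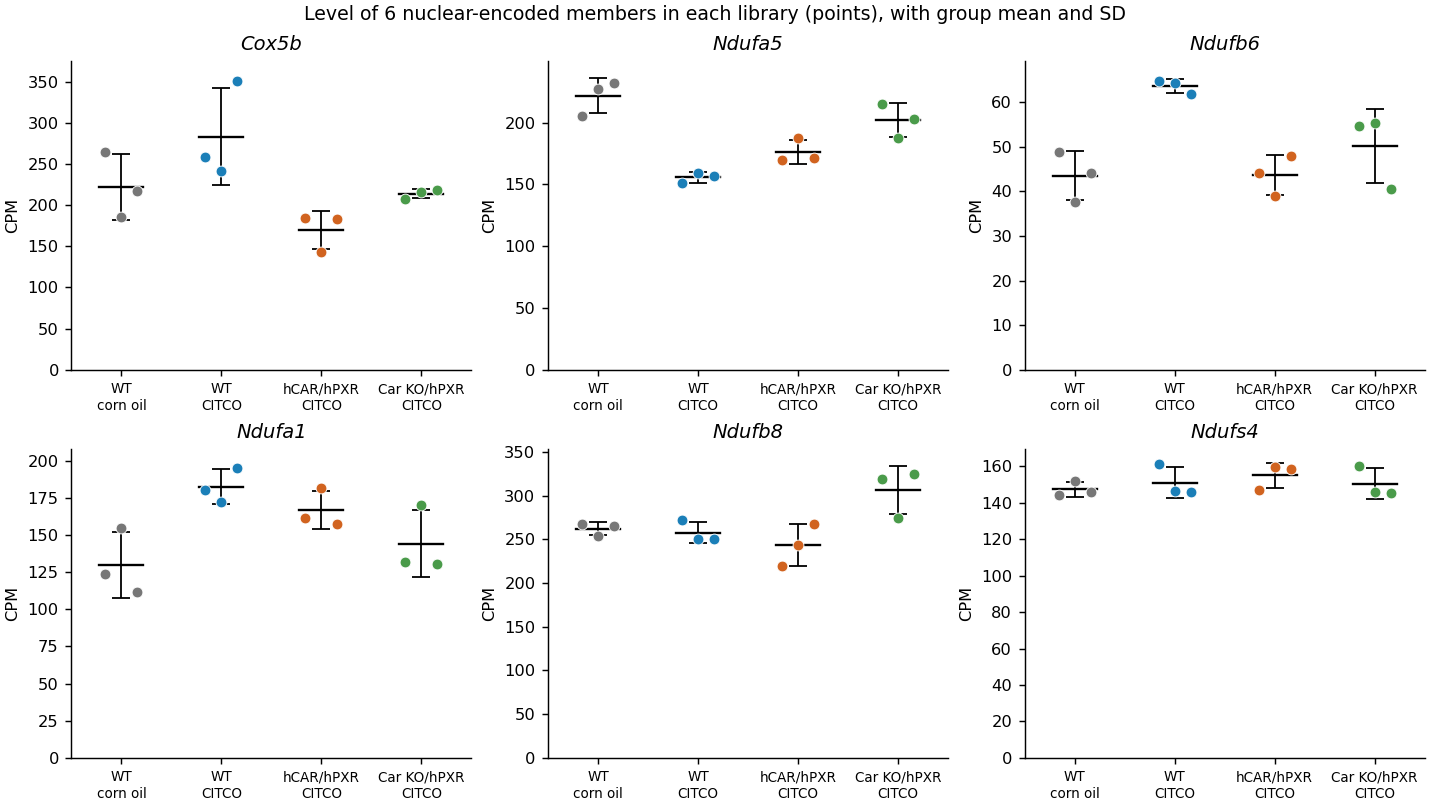
Levels of Cox5b, Ndufa5, Ndufb6, Ndufa1, Ndufb8 and Ndufs4 in each of 12 livers (CPM), with group means and SD. Cox5b is lowest in hCAR/hPXR (mean 170.4 CPM), Ndufa5 is lowest in WT CITCO (156), and Ndufs4 is level over the 4 groups.

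A single mt member had fold changes far larger than the rest, and they rest on 1 library. mt-Nd4l, a small membrane subunit of complex I, had 45, 0 and 0 counts in WT corn oil, 39, 811 and 0 in WT CITCO, 0, 0 and 71 in hCAR/hPXR, and 46, 0 and 0 in Car KO/hPXR. The 811 counts of WT CITCO replicate 2 gave log2 fold changes of 4.61 against corn oil, -3.53 for hCAR/hPXR and -4.15 for Car KO/hPXR (edgeR adjusted p 0.332, 0.468 and 0.362). Without that library the hCAR/hPXR value turned to 0.47, the Car KO/hPXR value was -0.29 and the value against corn oil was 0.78. Leaving out the only library of a group with counts (corn oil replicate 1, hCAR/hPXR replicate 3, Car KO/hPXR replicate 1) gave 11.18, -11.27 and -11.24. edgeR without a filter on low counts called mt-Nd4l in all 3 comparisons with WT CITCO, at an adjusted p of 4.32e-41 or less, while the other alternatives did not. Summed with mt-Nd4, its neighbour on chrM, the level was 11200 CPM (SD 1956) in WT corn oil, 10120 (SD 3364) in WT CITCO, 8901 (SD 1316) in hCAR/hPXR and 11340 (SD 2192) in Car KO/hPXR, with overlap between all groups.

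Genes that build, feed and regulate the chain held no called change apart from Gdf15, described further on. Among 15 tested regulators of mitochondrial biogenesis, 0 were called in any comparison, with median log2 fold changes of 0.22 for WT CITCO against corn oil, -0.07 for hCAR/hPXR and -0.09 for Car KO/hPXR against WT CITCO, and 0.06 between the modified lines. In the same order the medians were 0.09, -0.09, -0.12 and -0.11 for 28 assembly factors of complexes II to V. For 5 other assembly factors of complex I they were -0.24, 0.09, 0.03 and -0.26. The 14 carriers and channels had 0.14, -0.05, 0.01 and -0.07, and the 17 genes of the TCA cycle 0.01, 0.02, 0.04 and -0.03. The 78 mitochondrial ribosomal proteins had -0.03, 0.04, -0.07 and 0.04, the 2 mt ribosomal RNAs 0.00, -0.22, -0.09 and -0.13, and 2 nuclear-retained RNAs -0.08, 0.03, -0.03 and 0.05. No gene of these lists was called by edgeR's quasi-likelihood test, Benjamini-Hochberg adjusted.

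Among 14 genes of mitochondrial antioxidants and stress, only Gdf15, a secreted factor that stressed mitochondria are known to induce, was called, in hCAR/hPXR against WT CITCO. The medians of the list were -0.12, 0.14, 0.21 and -0.14. An unadjusted p under 0.05 was found for 5, 2, 4 and 3 of the 14 genes in the order of comparisons above, beside 9.13, 8.81, 9.3 and 10.6% of all genes, and whether these counts exceed those of other lists was not tested. Gdf15 had 32, 10 and 18 counts in WT corn oil, 0, 2 and 4 in WT CITCO, 36, 16 and 15 in hCAR/hPXR, and 11, 8 and 6 in Car KO/hPXR. Its log2 fold change in hCAR/hPXR against WT CITCO was 3.24 (SE 0.615, edgeR adjusted p 0.0202), and WT CITCO is the group with the low counts. The call was lost with only the 2 groups compared (adjusted p 0.0572) and without WT CITCO replicate 1 (0.0964), WT CITCO replicate 2 (0.098), hCAR/hPXR replicate 1 (0.121) or hCAR/hPXR replicate 3 (0.0555). It was also lost without the 2 libraries with muscle transcripts (0.305), where the log2 fold change was 2.31. With single libraries left out the log2 fold change stayed between 2.65 and 4.18. DESeq2's Wald test gave no adjusted p for this gene. Against corn oil, WT CITCO had a log2 fold change of -2.93 (edgeR adjusted p 0.0585).

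Marker genes of liver cell types give the setting of these values, and their part was not tested. The 6 hepatocyte markers, led by Alb, had median log2 fold changes of 0.10, -0.21, 0.06 and -0.25 in the same order of comparisons, with 4, 1, 4 and 2 of 6 higher, beside 0.04, -0.08, 0.00 and -0.11 for the nuclear members. Hepatocytes also express the members. Summed hepatocyte levels were lowest in hCAR/hPXR replicates 1 and 2 (21500 and 23600 CPM), and 36700 in replicate 3. The 5 red blood cell genes tested, led by Hba-a2, had medians of -0.02, -0.54, -0.16 and -0.34, with 0 of 5 higher in hCAR/hPXR against either CITCO group. An unadjusted p under 0.05 (edgeR) was found for 1, 3, 0 and 1 of these 5. Their sums were 1970, 1840 and 2170 CPM in hCAR/hPXR and between 1970 and 3940 elsewhere. The 6 Kupffer cell markers, led by Cd5l, had 0.35, 0.28, -0.26 and 0.22, the 6 endothelial markers, led by Kdr, 0.22, -0.18, -0.28 and 0.09, and the 4 stellate markers tested, led by Dcn, 0.15, -0.11, -0.31 and 0.20. Sox9 was the only cholangiocyte marker tested (-0.74, 0.43, 0.62 and -0.19). Lymphocyte markers, led by Trac, summed to between 1 and 13 counts per library and none was tested. Of the brown fat list, Ucp1 is absent from the table and Elovl3, which liver also expresses, had 324, 298 and 225 counts in WT corn oil, 87, 117 and 130 in WT CITCO, 170, 245 and 154 in hCAR/hPXR, and 60, 133 and 154 in Car KO/hPXR. Acta1 was the only muscle marker tested. No marker of any list was called by edgeR's quasi-likelihood test, Benjamini-Hochberg adjusted. The authors, using DESeq2's Wald test, list Hba-a2 and Hbb-bs among the genes lower in hCAR/hPXR than in WT mice after CITCO.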

How the data were processed

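RNA from livers of 12 mice was read as 3' tags, with 3 mice in each of 4 groups taken from the sample labels. The authors trimmed reads with Trimmomatic and aligned them with STAR, per their processing notes, and deposited expected counts per gene from RSEM for 51912 genes. A further table deposited by the authors holds log2-like values, made with DESeq2's variance-stabilising transformation, for 17859 genes. Expected counts were rounded (9.34% were not whole). edgeR 4.0.16 in R 4.3.3 filtered them with filterByExpr, scaled them by TMM and fitted the 12 libraries jointly with 4 group means for its quasi-likelihood test. Calls needed a p under 0.05 after Benjamini-Hochberg adjustment over the 8594 genes tested. The 4 comparisons were WT CITCO against WT corn oil, each modified line against WT CITCO, and hCAR/hPXR against Car KO/hPXR. The F statistic of each test gave the standard error and 95% interval. Libraries held between 1451203 and 2341557 counts in WT corn oil (median 1600691), 1370330 and 1654436 in WT CITCO (median 1577702), 1167008 and 2012805 in hCAR/hPXR (median 1726056) and 1172224 and 1499487 in Car KO/hPXR (median 1255186), so that 3 counts were between 1.33 and 2.48 CPM.

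Alternatives were DESeq2 size factors, TMM without mt genes, DESeq2 1.42.0's Wald test, only the 2 groups compared, no filter on low counts, a replicate block, an added 1.5-fold threshold, limma 3.58.1 on the deposited transformed values, and leaving out each library. Leaving out both libraries with muscle transcripts was added after the counts were seen. The pipeline was tested on simulated data. Genes named are called members, the 3 nuclear members with the smallest p in each comparison, all mt members, the most abundant nuclear member of each complex, pairs of tissue isoforms of complex IV, called genes and the most abundant markers of the lists, Nr1i2, Nr1i3 and Cyp2b10; others are named as chosen after their values were seen. The members and lists were chosen with earlier results of these data known. The lists are regulators, assembly factors, carriers, TCA cycle, mitochondrial ribosomal proteins, mt ribosomal RNAs, nuclear-retained RNAs, antioxidants and stress, and markers of hepatocytes, Kupffer, endothelial, stellate, cholangiocyte, red blood, lymphocyte, muscle and brown fat cells. The pseudogene Atp5l-ps1, with 21 counts in WT corn oil replicate 2, 15 in Car KO/hPXR replicate 1 and 0 elsewhere, was left out. Coordinates are from GENCODE M21 (GRCm38), which annotates 104 of the members as protein coding and Ndufb1 as a long non-coding RNA.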

Additional observations from a re-analysis of the deposited data

How the results depend on the processing

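With an adjusted p under 0.05, edgeR called 0 members in each comparison, and this held with DESeq2 size factors, TMM without mt genes, only the 2 groups compared, an added 1.5-fold threshold, limma, each library left out, and both libraries with muscle transcripts left out (an alternative added after the counts were seen). Few genes of any kind were called in these fits. Without both libraries with muscle transcripts edgeR called 5, 13, 5 and 17 of 8795 genes in the order of the report. With single libraries left out it called between 5 and 58 of all genes. At such rates 0 of 99 members is a likely outcome for any set of this size, so these fits add little. DESeq2's Wald test called 1 member in WT CITCO against corn oil (Ndufa5, adjusted p 0.0496) and 1 in hCAR/hPXR against WT CITCO (Cox5b, 0.0046). Without a filter on low counts edgeR called 1 member in WT CITCO against corn oil (mt-Nd4l, 4.44e-62), 2 in hCAR/hPXR against WT CITCO (Cox5b, 0.0126, and mt-Nd4l, 4.32e-41) and 1 in Car KO/hPXR against WT CITCO (mt-Nd4l, 8.1e-51). The log2 fold change of mt-Nd4l in hCAR/hPXR against WT CITCO reversed to 0.47 without WT CITCO replicate 2, and was -11.27 without hCAR/hPXR replicate 3. With single libraries left out, nuclear medians ranged from 0.00 to 0.11, -0.13 to -0.07, -0.03 to 0.05 and -0.12 to -0.08 in the 4 comparisons in the order of the report, and mt medians from -0.02 to 0.21, -0.30 to -0.04, -0.24 to 0.16 and -0.33 to -0.01. Over all genes tested, deviations correlated at -0.051 to 0.075 between samples with the same replicate number. Between samples with different numbers they correlated at -0.078 to 0.052. Such correlations were not taken for the members alone, and muscle transcripts were highest in replicate 1 of each CITCO group (240, 225 and 29 counts). A fit with a replicate block called 0 members, and 20, 33, 24 and 53 of all genes. With 3 mice per group, small shifts are within the intervals given.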
